A study of Homo sapiens with 18 samples.

Results

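CTCF, its germline paralog CTCFL and 6 other DNA-binding or DNA-bound factors linked to chromatin loop anchors (YY1, ZNF143, MAZ, LDB1, VEZF1 and ADNP) were followed through HAP1 cells lacking the cohesin release factor WAPL, the cohesin loader SCC4 or both. The 8 genes were listed by name, in a choice made with earlier results of these data known, and all 8 were found among the 20329 genes counted. Polyadenylated RNA of HAP1, a near-haploid human line that descends from a chronic myeloid leukaemia line, was sequenced in 18 samples, 3 in each of 6 groups. In set A these were wild-type cells (control_A), a ΔWAPL clone (WAPLko_3.3), a ΔSCC4 line (SCC4ko) and a ΔWAPL/ΔSCC4 line (WAPLko_3.3_SCC4ko, called the double knockout here). In set B they were wild-type cells (control_B) and another ΔWAPL clone (WAPLko_1.14). The labels name the set for the controls only, and the sets of the knockouts were read from run numbers. The ΔWAPL lines carried a Blasticidine cassette and the ΔSCC4 lines a Puromycin cassette at the cut made by a CRISPR guide, and the double knockout was made by removing SCC4 from ΔWAPL cells. Each knockout group is thus 1 line, so what is particular to a clone cannot be told apart from the loss of the gene. No source used here says that the 3 samples of a group were separate cultures, and the p-values measure only the spread between these samples.

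CTCF is a zinc finger protein that binds DNA in a fixed orientation and holds cohesin at the base of chromatin loops. Cohesin is loaded on DNA by SCC2 with SCC4, extrudes loops, and is released by WAPL. CTCFL, also called BORIS, has a similar zinc finger domain and is normally made in the male germ line. YY1 links enhancers with promoters, and ZNF143 is a promoter-bound activator. MAZ and VEZF1 are related zinc finger proteins that bind runs of G, and MAZ is known to act as an insulator factor beside CTCF. LDB1 does not bind DNA itself but joins LMO and GATA factors bound at distant sites. ADNP recruits the remodeller CHD4 and HP1 proteins, and competes with CTCF at many sites.

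By the annotation of GRCh37, CTCF lies on chr16:67596370-67673080 on the plus strand and CTCFL on chr20:56071022-56100708 on the minus strand. YY1 is on chr14:100704635-100749125, ZNF143 on chr11:9481866-9550071 and MAZ on chr16:29817427-29822485, all on the plus strand. LDB1 is on chr10:103866246-103880125, VEZF1 on chr17:56048908-56065620 and ADNP on chr20:49505453-49547974, all on the minus strand. Of the 8 genes, ZNF143 was the one that overlapped another counted gene, by 384 bp with an unnamed gene on the opposite strand. CTCF and CTCFL encode proteins of 727 and 663 residues by their main annotated transcripts, each with 11 zinc fingers of the C2H2 pattern, and the aligned residues of both were 51.9% identical. MAZ and VEZF1 were 60.4% identical over 240 aligned residues.

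The promoters of the paralogs CTCF and CTCFL are shown because their RNA levels behaved differently. Each is the stretch of 250 bases before an annotated start in RefSeq (GRCh38.p14), CTCF at chr16:67562276-67562525 on the plus strand and CTCFL at its farthest upstream start at chr20:57525653-57525902 on the minus strand. Capitals mark matches, on either strand, to a core CTCF motif (CCA, AG and GGC in this order, parted by 2 free bases each) or a MAZ motif (GGGAGGG).
CTCF: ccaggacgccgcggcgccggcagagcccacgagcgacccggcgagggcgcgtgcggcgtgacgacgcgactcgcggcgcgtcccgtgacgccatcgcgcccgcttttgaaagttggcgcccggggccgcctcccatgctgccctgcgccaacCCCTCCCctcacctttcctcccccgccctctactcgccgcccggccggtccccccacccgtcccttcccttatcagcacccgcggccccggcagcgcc
CTCFL: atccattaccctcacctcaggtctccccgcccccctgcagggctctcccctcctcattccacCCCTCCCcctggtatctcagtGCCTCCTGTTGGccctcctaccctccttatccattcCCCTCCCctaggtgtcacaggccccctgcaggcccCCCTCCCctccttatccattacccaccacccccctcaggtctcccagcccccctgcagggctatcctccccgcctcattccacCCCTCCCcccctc
The CTCFL stretch held 1 match to the CTCF motif and 4 to the MAZ motif, and no match overlapped another. The CTCF stretch held 1 match to the MAZ motif and none to the CTCF motif. Of 35116 promoter stretches of this length, 2.02% held the CTCF motif and 24.7% the MAZ motif. The other CTCFL starts, and all starts of the other 6 genes, held no match to the CTCF motif. The GC content was 76.8% in the CTCF stretch and 66.4% in the CTCFL stretch, with 39 and 2 CpG dinucleotides. The other CTCFL starts had 70.8% and 70.0% GC, 15 and 7 CpG dinucleotides, and 1 and 3 matches to the MAZ motif. The stretch shown thus had the lowest GC and fewest CpG of the CTCFL starts. A match describes letters in the window and is no evidence of binding.

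The total count on genes was between 10007646 and 20711127 per sample. WAPL mRNA was 43.7 ± 5.65 CPM (SD, n = 3) in WAPLko_3.3 against 99.2 ± 21.5 in control_A, and 41.3 ± 2.89 in WAPLko_1.14 against 120.6 ± 14.6 in control_B. CPM is the read count of a gene scaled to the size of its library, normalised over the 18 samples. MAU2, the gene of SCC4, was 0.702 ± 0.243 CPM in SCC4ko and 0.935 ± 0.10 in the double knockout against 65.6 ± 6.25 in control_A. These levels matched the labels. The blood-lineage markers SPI1 and MPO had no read in any sample, and none of 6 such markers (PTPRC, CD33, CD34, SPI1, GATA1, MPO) had enough reads to be tested. TAL1, a blood factor listed here with the LDB1 partners, was at 72.9 CPM in control_A. Replicates differed by more than sampling noise in every group, with a chi-square per degree of freedom of 15.3 to 52.0 between the control_A replicates and 1.606 to 4.24 between those of WAPLko_1.14.

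Per summed length of all annotated exons, MAZ was the most abundant of the 8 factors in control_A, at 625 ± 56.6 TPM (SD, n = 3, computed here from the counts and that length). ADNP followed at 134 ± 33.4, LDB1 at 91.3 ± 3.99, YY1 at 79.8 ± 20.9, CTCF at 62.1 ± 1.39, VEZF1 at 34.9 ± 9.47, ZNF143 at 24.6 ± 5.02 and CTCFL at 0.171 ± 0.066 TPM. The samples of LDB1 and YY1 overlapped, as did those of YY1 and CTCF and those of VEZF1 and ZNF143. ADNP and LDB1 did not overlap, nor did CTCF and VEZF1. By coding length alone MAZ stayed first, at 265 TPM. YY1 came before ADNP, LDB1 and CTCF, at 148, 78.9, 71.1 and 70.7 TPM, so the order in the middle depends on which length is used. CTCFL was last by either length. For CTCF the summed exons were 10106 bp and the main transcript 3814 bp, and levels per main transcript were not computed.

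**Figure D1:**
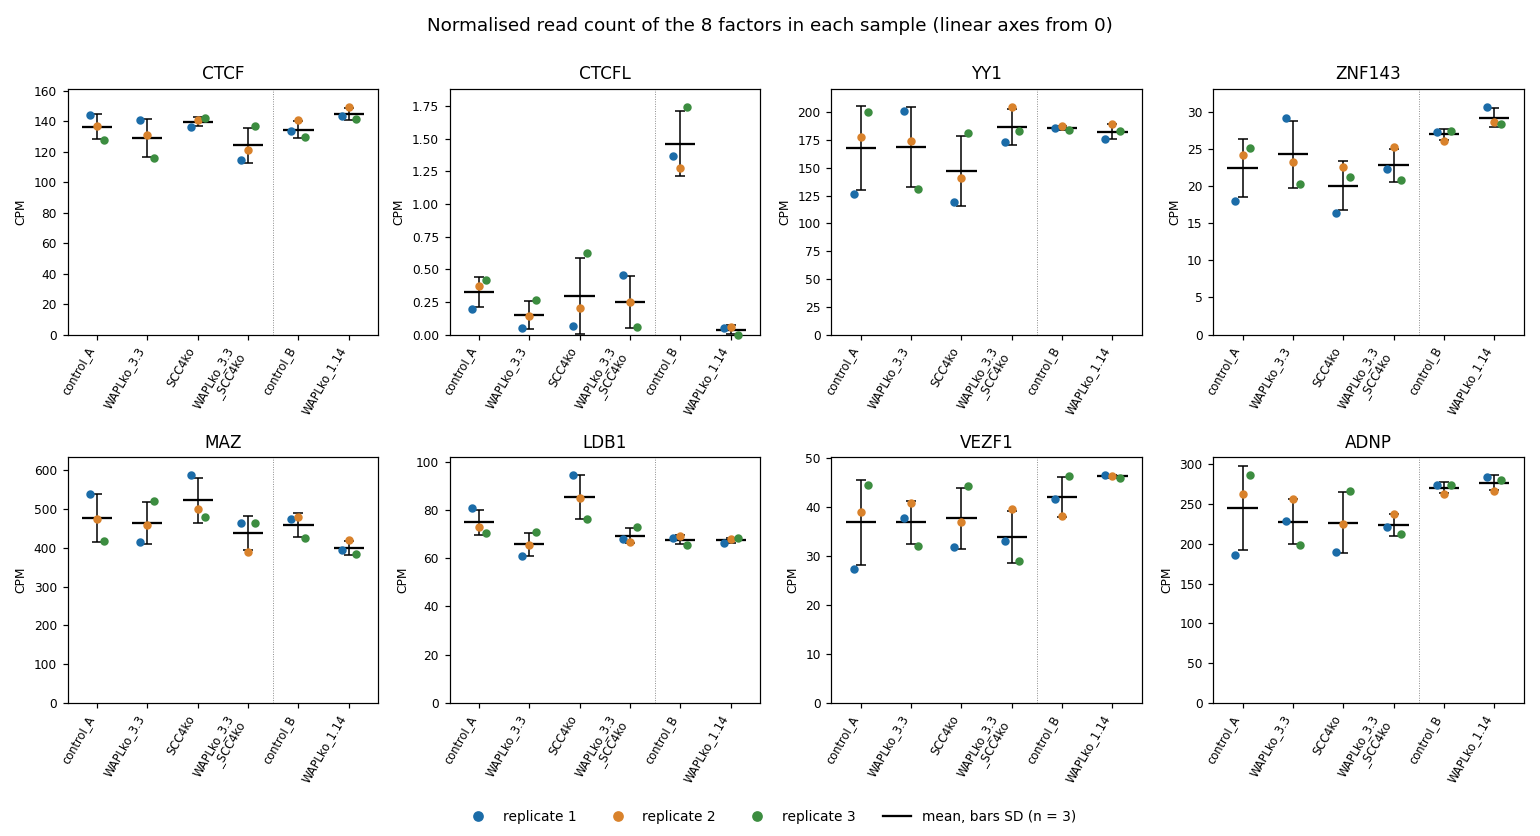
Normalised read count (CPM, linear axes from 0) of the 8 factors in each of the 18 samples, with the mean and SD of the 3 replicates of each group; the dotted line parts set A from set B. CTCFL was below 2 CPM in every sample, highest in control_B, and the other 7 factors kept their level within 1.17 to 1.46 times between the lowest and highest group mean.

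CTCF mRNA was steady. The 3 control_A samples had 144.2, 137 and 127.8 CPM and the WAPLko_3.3 samples 140.9, 130.9 and 116.1 CPM, so the groups overlapped. In set B, control_B had 133.6, 140.6 and 129.4 CPM and WAPLko_1.14 had 143.4, 149.5 and 141.6 CPM, each knockout sample just above each control. SCC4ko had 136.5, 140.6 and 142.4 CPM, and the double knockout 114.7, 121.1 and 136.8. Between the lowest and the highest group mean, the double knockout at 124.2 and WAPLko_1.14 at 144.8 CPM, the ratio was 1.17, the smallest of the 8 factors. The log2 change in WAPLko_3.3 was -0.10 ± 0.14 (SE), with a 95% interval from -0.39 to 0.20 (edgeR's quasi-likelihood test, adjusted p = 0.822). In WAPLko_1.14 it was 0.10 ± 0.06, from -0.03 to 0.24 (edgeR, adjusted p = 0.238), and over both clones 0.01 ± 0.07, from -0.13 to 0.16 (edgeR, adjusted p = 0.907). SCC4ko gave 0.02, from -0.24 to 0.28 (edgeR, adjusted p = 0.932), and the double knockout -0.14, from -0.41 to 0.13 (edgeR, adjusted p = 0.668). No change of CTCF was detectable at this depth and spread, and each interval stayed within 0.41 of 0 on the log2 scale.

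CTCFL was the factor whose level differed. Its reads were few, and their number is given for each sample. Control_B had 20, 19 and 31 reads, and WAPLko_1.14 had 1, 1 and 0. Summed over the samples this was 70 against 2 reads, a level 38.7-fold lower in WAPLko_1.14 (95% counting interval 10.3 to 326, exact binomial, covering counting error only). The sample with 0 reads allows a level of up to 0.181 CPM, the worth of 3 reads. The edgeR fit gave a log2 change of -5.02 ± 0.46 (SE; adjusted p = 0.00039), a value that depends on the prior count. An exact permutation test of the 3 CPM values against 3 gave p = 0.1, the smallest it can give.

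Control_A had 3, 6 and 7 reads of CTCFL, WAPLko_3.3 had 1, 2 and 4, SCC4ko had 1, 2 and 9, and the double knockout had 8, 4 and 1. All 4 groups overlapped, and CTCFL did not pass the filter on low counts (edgeR's filterByExpr) in any comparison within set A. The ratio of WAPLko_3.3 to control_A, from 7 and 16 reads, was 0.43, with an interval of 0.149 to 1.1 (two-sided exact permutation p = 0.2). SCC4ko to control_A was 0.914 (0.395 to 2.06), and the double knockout to control_A 0.762 (0.337 to 1.69). The WAPLko_3.3 interval held the value of no change and lay above the ratio in WAPLko_1.14, 0.0258 (0.00307 to 0.0969). In bulk RNA, fewer cells with a transcript and less of it per cell cannot be told apart.

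The wild-type groups themselves differed in CTCFL, with control_B 4.48-fold above control_A (95% counting interval 2.57 to 8.26; 70 and 16 reads). The log2 difference was 2.12 ± 0.32 (edgeR, adjusted p = 0.0246), and the groups did not overlap. In the main fits CTCFL passed the filter through control_B, where it was highest, in set B, between the controls and over both clones. Its tests in these fits and in the difference between the clones are thus given as a description. Without control_A replicate 1 or 2, or control_B replicate 1 or 3, the adjusted p rose to between 0.0537 and 0.201 (edgeR), at log2 differences of 1.90 to 2.23. With the set as a covariate, the log2 change of CTCFL over both clones was -3.19 ± 0.54 (edgeR, adjusted p = 0.000623), and most of its reads were those of control_B. The difference between the clones was 3.85 ± 0.98, less lowered in WAPLko_3.3 (edgeR, adjusted p = 0.0605), and 4.35 without WAPLko_3.3 replicate 1 (edgeR, adjusted p = 0.0329).

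Neighbours of CTCFL were looked at after its values were seen. Of the 8 other counted genes within 500 kb, 4 had enough reads to be tested. RAE1, RBM38 and PMEPA1 did not pass the threshold in either clone. BMP7, a ligand of the BMP family that ends 229 kb from CTCFL, fell from 13.1 CPM in control_B to 0.615 in WAPLko_1.14 (log2 change -4.41, edgeR, adjusted p = 1.21e-05). In WAPLko_3.3 it rose from 13.4 to 70.5 CPM (2.37, edgeR, adjusted p = 2.74e-07).

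Counted over the 8 factors, CTCFL was the one past the threshold, and it entered each of its fits through control_B. In WAPLko_3.3 against control_A, 0 of 7 factors tested were called, where 8.07% of all genes tested were. In WAPLko_1.14 against control_B it was 1 of 8 (CTCFL, lower) against 20.1% of all genes, and over both clones 1 of 8 (CTCFL, lower) against 17.7%. In SCC4ko, 0 of 7 were called against 9.49%, and in the double knockout 0 of 7 against 7.95% relative to control_A, 10.6% relative to WAPLko_3.3 and 27.3% relative to SCC4ko. Between control_B and control_A it was 1 of 8 (CTCFL, higher) against 0.64%, and for the difference between the clones 0 of 8 against 2.65%. At an unadjusted p under 0.05, the 7 factors other than CTCFL numbered 0 in WAPLko_3.3, SCC4ko and the double knockout relative to control_A, 1 in WAPLko_1.14 (MAZ) and 2 in the double knockout relative to SCC4ko (YY1 and LDB1). Over all genes tested, such p-values numbered 2188 of 12489, 2890 of 12503 and 2222 of 12594 in the first 3 of these comparisons, 4465 of 12636 in WAPLko_1.14 and 5050 of 12604 between the double knockout and SCC4ko. DESeq2 called none of these 7 in any of these comparisons. WAPLko_3.3, SCC4ko and the double knockout share their control_A samples.

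**Figure D2:**
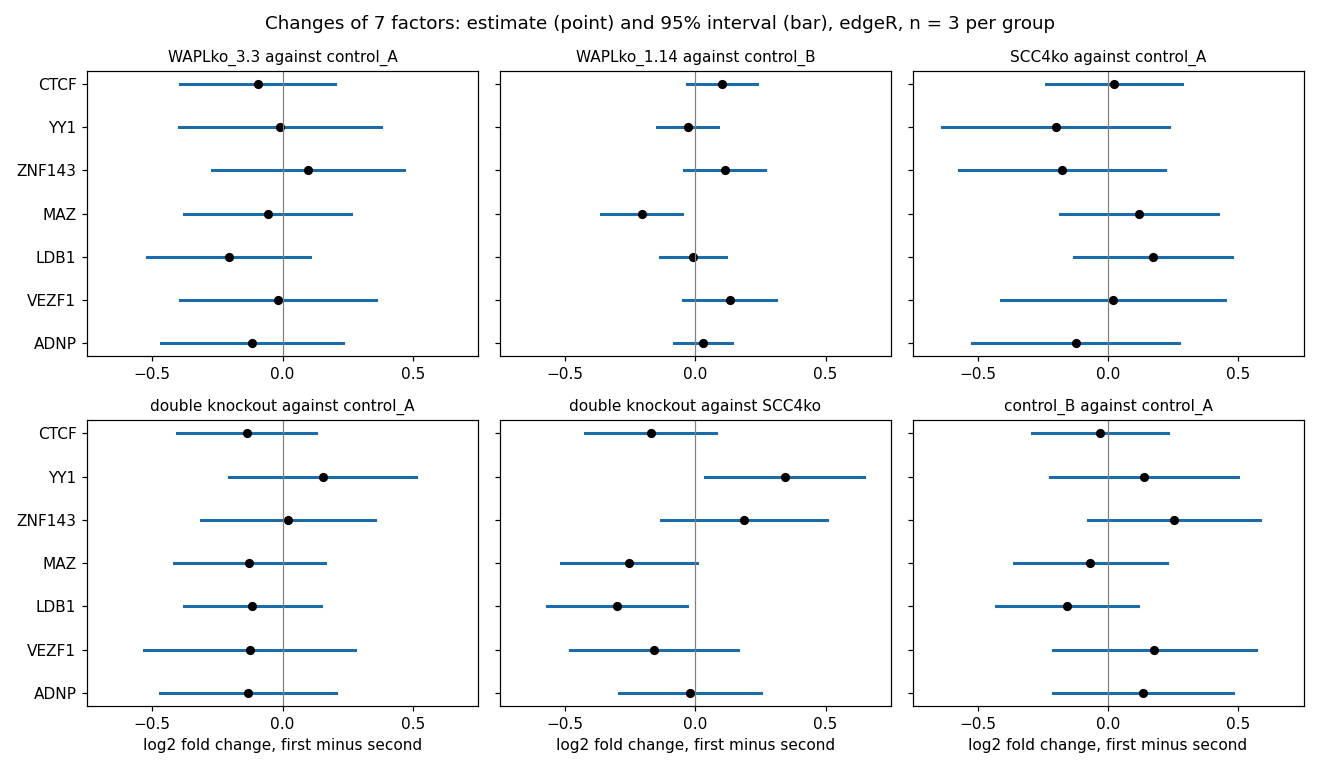
Log2 fold change (x axis, first group minus second) of 7 factors with the 95% interval from edgeR's fit, in 6 comparisons of 3 samples against 3. The intervals crossed 0 except those of MAZ in WAPLko_1.14 and of YY1 and LDB1 between the double knockout and SCC4ko, and those in WAPLko_1.14 were the narrowest.

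MAZ and VEZF1, the related G-binding factors, had log2 changes of opposite sign in WAPLko_1.14, neither past the threshold. MAZ had 474.2, 480.1 and 424.2 CPM in control_B and 394.1, 419.7 and 385 in WAPLko_1.14, all below the controls. Its log2 change was -0.21 ± 0.07, from -0.36 to -0.05 (edgeR, adjusted p = 0.0674), and -0.27 without control_B replicate 3 (edgeR, adjusted p = 0.00942). VEZF1 had 41.57, 38.25 and 46.37 CPM in control_B and 46.55, 46.42 and 45.87 in WAPLko_1.14, and control_B replicate 3 lay among the knockout values. Its log2 change was 0.13 ± 0.08 (edgeR, adjusted p = 0.25), and 0.20 without that replicate (edgeR, adjusted p = 0.0418). The fit without control_B replicate 3 called 37.9% of all genes tested. In WAPLko_3.3 the samples of both genes overlapped control_A, with log2 changes of -0.06 for MAZ and -0.02 for VEZF1. Counted by groups that do not overlap, CTCF, CTCFL, ZNF143 and MAZ stood apart from control_B in WAPLko_1.14, 4 of 8 factors, where 42.5% of all genes tested did.

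YY1 and ZNF143 varied more between replicates than between genotypes in set A. YY1 had 126.1, 177.5 and 200.1 CPM in control_A, 201.4, 174.1 and 130.5 in WAPLko_3.3, 119.3, 141.1 and 181.2 in SCC4ko and 173, 204.9 and 182.7 in the double knockout, and all 4 groups overlapped. In set B it was even, at 184 to 187.6 CPM in control_B and 175.5 to 189.2 in WAPLko_1.14. The interval of its log2 change was correspondingly wide in WAPLko_3.3, -0.40 to 0.38, and narrow in WAPLko_1.14, -0.15 to 0.09. ZNF143 was lowest in SCC4ko, at 16.39, 22.6 and 21.15 CPM, and highest in WAPLko_1.14, at 30.64, 28.61 and 28.3, the widest span of group means among the 7 factors other than CTCFL. This span crosses the sets, and the controls themselves stood apart, at 17.97 to 25.09 CPM in control_A and 26.09 to 27.41 in control_B. Between the controls, 19.4% of all genes tested did not overlap, and ZNF143 was not called. Against its own controls the log2 change of ZNF143 was -0.18 in SCC4ko (edgeR, adjusted p = 0.602) and 0.11 in WAPLko_1.14 (edgeR, adjusted p = 0.259).

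LDB1 was highest in SCC4ko, at 94.55, 84.91 and 76.24 CPM, against 80.82, 73.13 and 70.62 in control_A and 68.11, 66.86 and 72.85 in the double knockout. SCC4ko overlapped control_A and lay wholly above the double knockout. The log2 change from SCC4ko to the double knockout was -0.30 ± 0.13 for LDB1 (edgeR, adjusted p = 0.0895), -0.25 ± 0.12 for MAZ (edgeR, adjusted p = 0.133) and 0.34 ± 0.14 for YY1 (edgeR, adjusted p = 0.0854). LDB1 and MAZ were the 2 of 7 factors tested whose groups did not overlap there, where 41.3% of all genes tested did not. Without SCC4ko replicate 3 all 3 passed, at -0.38, -0.31 and 0.52 (edgeR, adjusted p = 0.0253, 0.0384 and 0.000903), in a fit that called 39.5% of all genes tested. The same 3 genes were called in SCC4ko against control_A once the replicate number was entered as a replicate block. YY1 then fell by 0.20 and MAZ and LDB1 rose by 0.12 and 0.17 on the log2 scale (edgeR, adjusted p = 0.0184, 0.0475 and 0.0323), in a fit that called 46% of all genes tested. The pairing was read from correlations in these same counts and no source names it, so these calls are given as a description.

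ADNP had 185.7, 262.8 and 286.6 CPM in control_A, 229, 256 and 199.1 in WAPLko_3.3, 189.6, 224.4 and 265.9 in SCC4ko and 221.1, 238 and 211.8 in the double knockout. In set B it was 263.1 to 274.6 CPM in control_B and 266.4 to 284.6 in WAPLko_1.14. No group of ADNP stood apart from its control. The log2 change was between -0.13 and 0.03 in all 4 knockout lines against their controls, and no interval reached beyond -0.52 or 0.27.

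The replicate differences in set A were shared among the factors. Within groups, YY1, ZNF143, VEZF1 and ADNP deviated together from their group means, and MAZ and LDB1 deviated the other way. Control_A replicate 1, for example, deviated by -0.39 in YY1, -0.40 in VEZF1, -0.38 in ADNP and -0.30 in ZNF143 on the log2 scale, and by 0.19 in MAZ and 0.11 in LDB1. Over the 18 samples, with group means removed, Pearson's r was 0.937 between VEZF1 and ADNP, 0.842 between YY1 and ZNF143, 0.868 between MAZ and LDB1, and -0.892 between YY1 and LDB1. CTCF stood outside this pattern, with r between -0.236 and 0.229 with these 6 genes. The GC content of the main transcript was 65.9% for MAZ and 57.3% for LDB1, 47.5% for YY1, 47.4% for CTCF, 45.1% for ADNP, 42.2% for VEZF1 and 41.9% for ZNF143, where the median of 19356 transcripts was 49.1%. The part of GC content in these deviations was not tested. In set B the deviations of these 7 factors stayed within 0.15 on the log2 scale.

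**Figure D3:**
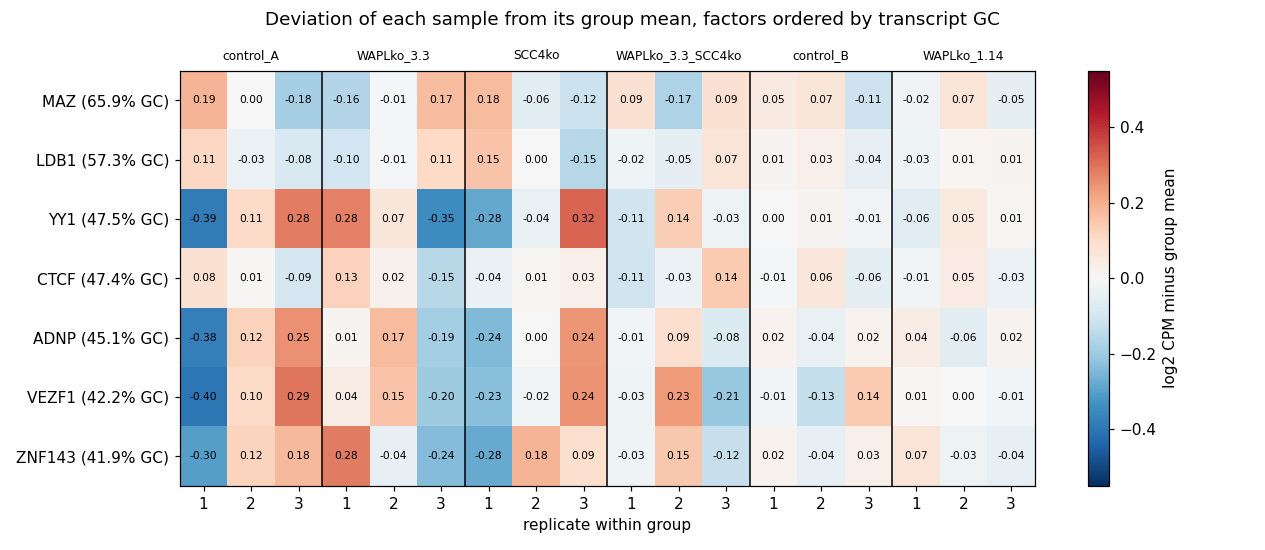
Deviation of each of the 18 samples from its group mean (log2 CPM, colour and printed value) for 7 factors, ordered by the GC content of their transcript. In control_A and SCC4ko replicate 1, MAZ and LDB1 were above their group means and YY1, ADNP, VEZF1 and ZNF143 below, while CTCF deviated by at most 0.15.

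The genes whose levels were most like those of a factor over the 18 samples, out of 12976 genes compared by Pearson's r of log2 CPM, differed between the factors. They were HNRNPA0, HUNK and SFPQ for CTCF (r = 0.864, 0.854 and 0.833) and TFB1M, ZNF528 and ZNF844 for CTCFL (0.873, 0.866 and 0.865). CDV3 (0.967) and PDE12 (0.955) were among the 3 most like YY1, and HNRNPR (0.962) and SERBP1 (0.95) among those most like ZNF143. MAZ was most like TRIM28 (0.983), ZDHHC18 (0.973) and CD99 (0.97). TXLNA, PI4KA and USP22 came first for LDB1 (0.964, 0.964 and 0.961), ZC3H11A, DCBLD2 and CLCN3 for VEZF1 (0.966, 0.959 and 0.958), and MTMR10 and ARHGAP32 were among the 3 for ADNP (0.951 and 0.938). The 18 points share groups, sets and the replicate differences described above, and r is given as a description. CTCFL entered this comparison through control_B, where it was highest, and had at most 9 reads in any other sample. Its r values therefore cannot be read apart from the level in that group.

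LDB1 itself did not pass the threshold, and some of its partners did. In WAPLko_1.14, 9 of 14 tested genes of the LDB1 complex list were called, 6 higher and 3 lower, where 20.1% of all genes were, at a list median log2 change of 0.18 against 0.00 over all genes. In SCC4ko it was 4 of 14, with 2 higher and 2 lower, against 9.49% of all genes (median 0.24 against -0.01). In the double knockout it was 6 of 14, with 1 higher and 5 lower, against 7.95% of all genes (median 0.02 against 0.00), and in WAPLko_3.3 1 of 14, which was higher, against 8.07% (median 0.07 against 0.00). The list was chosen with earlier results of these data known.

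LMO4, an adaptor that bridges LDB1 to DNA-binding proteins, was above the controls in every knockout sample. It had 13.48, 14.86 and 12.22 CPM in control_A and 34.09, 31.76 and 32.56 in WAPLko_3.3, a log2 change of 1.26 ± 0.15 (edgeR, adjusted p = 4.19e-05). In set B it went from 14.09, 14.05 and 12.16 CPM to 35.68, 38.35 and 38.2, a log2 change of 1.47 ± 0.09 (edgeR, adjusted p = 4.66e-05). SCC4ko had 28.03, 26.78 and 25.85 CPM, a change of 0.98 ± 0.14 (edgeR, adjusted p = 0.00132). The double knockout had 18.27, 20.4 and 18.66 CPM, below either single knockout, at 0.50 ± 0.13 relative to control_A (edgeR, adjusted p = 0.0422). That last call was lost without control_A replicate 2 or 3 or any 1 of the 3 double knockout samples (edgeR, adjusted p = 0.0935 to 0.165), and the groups did not overlap.

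Other partners were called in 1 or 2 of the lines against their controls. SSBP2, which stabilises LDB1, had 45.33, 44.52 and 47.32 CPM in control_A, 27.9, 33.6 and 28.41 in SCC4ko and 21.96, 24.89 and 22.91 in the double knockout. It fell by 0.63 and 0.98 on the log2 scale (edgeR, adjusted p = 0.0136 and 0.000395), the former to an adjusted p of 0.0638 without control_A replicate 2 and 0.0554 without SCC4ko replicate 1. Its relative SSBP3 fell by 0.21 in WAPLko_1.14 (edgeR, adjusted p = 0.026), and by 0.20 without control_B replicate 1 (adjusted p = 0.0947), 0.21 without WAPLko_1.14 replicate 1 or 2 (0.106 and 0.0699) and 0.22 without replicate 3 (0.0914). SSBP3 also fell in the double knockout, from 71.9 to 51.7 CPM (log2 change -0.48, edgeR, adjusted p = 0.0463), a call lost without control_A replicate 2 or any 1 of the 3 double knockout samples (edgeR, adjusted p = 0.0913 to 0.196). LMO3 fell in the double knockout from 25.2 to 13.4 CPM (edgeR, adjusted p = 0.00385) and rose in WAPLko_1.14 from 21.8 to 32.0 CPM (log2 change 0.55, edgeR, adjusted p = 0.0101; 0.06 without control_B replicate 1 and 0.0534 without WAPLko_1.14 replicate 2). The LIM-homeodomain factors LHX2 and ISL1, which bind LDB1 directly, rose, LHX2 from 14.9 to 27.8 CPM in SCC4ko (edgeR, adjusted p = 0.00426) and from 18.3 to 26.3 in WAPLko_1.14 (edgeR, adjusted p = 0.0119; 0.0567 without WAPLko_1.14 replicate 1), and ISL1 from 5.02 to 8.60 CPM in WAPLko_1.14 (edgeR, adjusted p = 0.00771). TAL1, a blood factor that LDB1 bridges to GATA proteins, fell from 54.4 to 2.71 CPM in WAPLko_1.14 (edgeR, adjusted p = 1.83e-06) and from 72.9 to 4.39 in SCC4ko (edgeR, adjusted p = 3.9e-07). It was 72.6 CPM in WAPLko_3.3 and 82.6 in the double knockout. None of these partners was called in WAPLko_3.3, where SSBP3 changed by -0.44, LHX2 by 0.43, ISL1 by 0.25 and LMO3 by 0.19. Over both clones 17.7% of all genes were called. SSBP3, LHX2, ISL1 and LMO3 passed there, at -0.32, 0.49, 0.53 and 0.38 (edgeR, adjusted p = 0.00487, 0.000664, 0.00796 and 0.0135). SSBP2 and TAL1 did not (edgeR, adjusted p = 0.0924 and 0.0578).

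**Figure D4:**
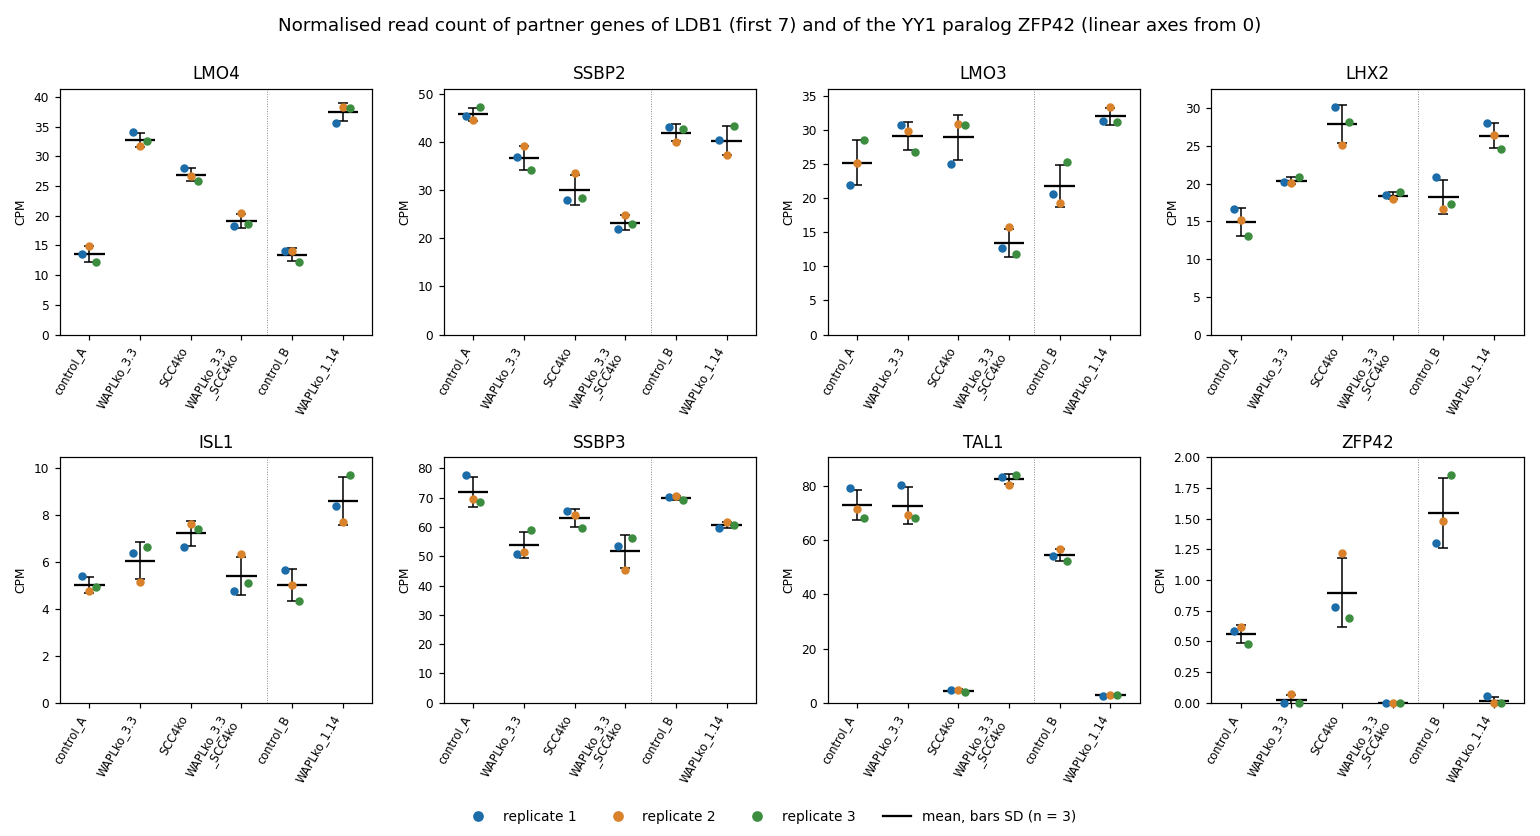
Normalised read count (CPM, linear axes from 0) of 7 LDB1 partner genes and of ZFP42 in each of the 18 samples, with the mean and SD of each group of 3. LMO4 was above its controls in all 12 knockout samples, TAL1 was low in SCC4ko and WAPLko_1.14, and ZFP42 had at most 1 read in any sample of the 3 lines lacking WAPL.

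Among the partner lists of the other factors, in WAPLko_3.3, SCC4ko and the double knockout against control_A, 0 genes were called among 10 CTCF cofactors, 9 ADNP partners with its paralog, 11 or 12 YY1 paralogs and partners, and 10 other anchor-linked factors. Of all genes tested, 8.07%, 9.49% and 7.95% were called in these lines. In WAPLko_1.14, where 20.1% of all genes were called, each list had 1. Between the double knockout and SCC4ko, where 27.3% were called, 3 of 10 CTCF cofactors, 1 of 9 ADNP partners, 1 of 12 YY1 partners and 3 of 10 other anchor-linked factors passed. That YY1 partner was ZFP42, which entered the fit through SCC4ko, where it was high, so its call there is given as a description. In WAPLko_1.14, DDX5, an RNA helicase that binds CTCF, rose by 0.18 on the log2 scale (edgeR, adjusted p = 0.0246). BHLHE40 fell by 0.46 (edgeR, adjusted p = 0.00776), and CBX5, an HP1 gene of the ADNP list, rose by 0.23 (edgeR, adjusted p = 0.00738). The other HP1 genes of that list, CBX1 and CBX3, were not called (-0.035 and 0.32, edgeR, adjusted p = 0.612 and 0.207). The DDX5 call was lost without control_B replicate 1 (0.19, edgeR, adjusted p = 0.0708) and without WAPLko_1.14 replicate 1 (0.16, 0.122) or 3 (0.18, 0.0824).

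ZFP42, the YY1 paralog also known as REX1 and a marker of pluripotent cells, was the remaining one, and was at or near 0 reads in the lines lacking WAPL. Control_B had 19, 22 and 33 reads and WAPLko_1.14 had 1, 0 and 0, a level 81.8-fold lower (95% counting interval 14.2 to 3280). It passed the filter there through control_B, where it was high, so the fitted log2 change of -5.88 ± 0.55 (edgeR, adjusted p = 0.000398) is given as a description. In set A, control_A had 9, 10 and 8 reads and WAPLko_3.3 had 0, 1 and 0, a level 27.5-fold lower (4.53 to 1130), too few reads to pass the filter. SCC4ko had 12, 12 and 10 reads, and the double knockout none in any of its 3 samples. The fit over both clones, which ZFP42 also entered through the controls, gave -5.30 on the log2 scale (edgeR, adjusted p = 1.04e-06), and the difference between the clones was 1.53 ± 1.87 (edgeR, adjusted p = 0.868).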

How the data were processed

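Polyadenylated RNA of 18 HAP1 samples was sequenced from strand-specific libraries. The authors deposited HTSeq counts of reads per gene, not normalised. The submitters' processing notes name TopHat2 2.0.9, HTSeq, DESeq2 1.10.1 and build hg19. Between 20.3% and 22.6% of the entries in each file were rows that name no gene and were left out. Symbols, positions and lengths came from the GENCODE annotation of GRCh37, which matched 96.6% of the gene identifiers. Whether the counting used strand is not given in the sources used here.

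The labels put the controls in sets A and B; the sets of the knockouts were read from run numbers, and all 6 controls were tried as an alternative. Each comparison was fitted with edgeR 4.0.16 (R 4.3.3; quasi-likelihood test, TMM, filterByExpr, Benjamini-Hochberg adjusted p over all genes tested, threshold 0.05) on its own groups, and 95% intervals came from its F statistic and degrees of freedom. CPM was normalised over all 18 samples, and log2 CPM had a prior count of 2. The scripts were tested on simulated data. The members and lists were chosen with earlier results of these data known. Of each partner list, at most 2 higher and 2 lower called genes with the smallest adjusted p were named in each line, and the 3 most alike genes for each factor, of which some are not reported here.

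As alternatives, DESeq2 1.42.0 or its size factors replaced the main tool or scaling, the filter was dropped or raised to 10 counts in each sample, all groups were fitted together, all controls were used, levels were set per coding length, the replicate number became a block, and samples were left out singly. The replicate numbers paired SCC4ko with control_A, by a rule on these data, since the deviations of same-numbered samples from their group means correlated at 0.675, 0.115 and 0.615; no source names what a number shares. In the other comparisons at least 1 pair correlated at under 0.1. Promoter stretches were from RefSeq (GRCh38.p14).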

Additional observations from a re-analysis of the deposited data

Results flagged for a closer look

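The clones changed unequally in TAL1, with log2 changes that differed by 4.32 ± 0.16 (edgeR interaction, adjusted p = 1.78e-09), and in BMP7, by 6.79, with BMP7 higher in all 3 WAPLko_3.3 samples and lower in all 3 WAPLko_1.14 samples than in their controls; from the separate fits the BMP7 difference was 6.78. LMO4 and LHX2 were higher than control_A in all 3 samples of WAPLko_3.3 and of SCC4ko, and lower in all 3 double knockout samples than in either single knockout. Between the WAPL effect in control and in SCC4ko cells the log2 changes differed by 1.75 for LMO4 and 1.03 for LHX2, and between the SCC4 effect in control and in WAPLko_3.3 cells by 1.76 and 1.04. For each gene this is the same difference taken either way, with small shifts between the separate fits, and not a separate result. These differences for LMO4 and LHX2 were not tested.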

How the results depend on the processing

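CTCFL in WAPLko_1.14 was called under each alternative except a minimum of 10 counts in every sample, which it did not pass, so that 0 of the factors were called there, 0 over both clones and 0 between the controls. The replicate number as a block used a pairing read from these same data, which did not hold outside SCC4ko. With it 2 factors were called in WAPLko_1.14 (CTCFL and MAZ), where 24% of all genes tested were, and 3 in SCC4ko, where 46% were. No other count of called factors changed with the block. Between the double knockout and SCC4ko, no filter gave 1 (YY1) and one fit over all 18 samples gave 1 (LDB1). Leaving out single samples gave 1 to 3 called factors in WAPLko_1.14, 0 to 3 between the double knockout and SCC4ko, 0 to 1 between the controls and 0 to 1 for the difference between the clones. The causes were not tested. Between 222 and 9048 reads per sample limit the precision of the 7 factors other than CTCFL, and 0 to 31 reads that of CTCFL.

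Among partner genes in WAPLko_1.14, DDX5, SSBP3 and CBX5 missed the threshold with one fit over all samples and with all 6 controls, BHLHE40 with all 6 controls and SSBP3 with DESeq2. LMO4 in the double knockout missed it with DESeq2, the stricter filter and the block, and SSBP3 there with the stricter filter and the block.

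Changes near 0 turned sign without passing the threshold. YY1 in WAPLko_3.3 was 0.008 with DESeq2 and 0.007 with its size factors and with one fit over all samples. VEZF1 in WAPLko_3.3 was 0 with the block, and LDB1 in WAPLko_1.14 was 0.01 with no filter. With all 6 controls, ZNF143 was -0.037 in WAPLko_3.3 and -0.117 in the double knockout, YY1 0.044 in WAPLko_1.14 and VEZF1 -0.077 in SCC4ko.

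Without single samples, log2 changes in WAPLko_3.3 ranged from -0.175 to 0.135 for YY1, -0.044 to 0.2 for ZNF143, -0.157 to 0.052 for MAZ, -0.189 to 0.135 for VEZF1 and -0.28 to 0.009 for ADNP. In WAPLko_1.14, LDB1 ranged from -0.037 to 0.012. Over both clones CTCF ranged from -0.008 to 0.057, YY1 from -0.097 to 0.057, VEZF1 from -0.013 to 0.142 and ADNP from -0.111 to 0.029. In SCC4ko CTCF ranged from -0.024 to 0.071, VEZF1 from -0.152 to 0.17 and ADNP from -0.286 to 0.001. In the double knockout against control_A, ZNF143 ranged from -0.097 to 0.109 and VEZF1 from -0.283 to 0.027. Against WAPLko_3.3, CTCF ranged from -0.133 to 0.008, YY1 from -0.008 to 0.295, ZNF143 from -0.208 to 0.067, MAZ from -0.161 to 0.008 and ADNP from -0.117 to 0.074, and against SCC4ko ADNP ranged from -0.132 to 0.11. Between the controls CTCF ranged from -0.082 to 0.032, YY1 from -0.013 to 0.276, MAZ from -0.161 to 0.052 and ADNP from -0.012 to 0.255. For the difference between the clones YY1 ranged from -0.146 to 0.188, ZNF143 from -0.161 to 0.112 and VEZF1 from -0.324 to 0.015.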
